A study of Mus musculus with 12 samples.

Results

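Follicular helper T (Tfh) cells taken from tumours were compared with Tfh-type cells made in a dish. The comparison uses 6 of the 12 libraries of a mouse CD4+ T cell RNA sequencing study, 3 from each source. Libraries were assigned by their titles, and a gene was kept when its mean reached 1 TPM (a transcript level corrected for transcript length and library total) in either source after scaling. This left 19984 of 35492 gene symbols. The gene closest above that level among named protein-coding genes was Th, with a mean of 1.00 TPM in the culture, and the closest below it was B3gnt7, with 0.9998 TPM in the tumour group.

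The tumour group consisted of CD4+ CXCR5+ PD1+ cells sorted from MC38 tumours, which are grown from a mouse colon carcinoma line. The culture group started from naive CD4+ T cells of wild-type spleen and lymph nodes. These were stimulated on plates coated with antibodies to CD3 and CD28, and received IL-6 and IL-21, each at 50 ng/ml, together with antibodies to IL-4, to IFNγ and to TGFβ, each at 10 µg/ml. All mice were C57BL/6J and 7 weeks old, and RNA came from 300000 cells. The titles of the culture libraries give 24 h of culture and the protocol gives 48 h. How long the cells had been in the tumour, and how many mice were used or pooled, is not stated. Place, stimulus, cytokines, time and sorting therefore differ together between the groups and cannot be told apart. Nothing in the labels says that replicates came from separate animals or cultures, so a p-value here is relative to library spread that could be purely technical. The other 6 libraries, an OT-II Tfh culture and an IL-12 Th1 culture, entered the scaling and are named at the end.

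Tfh cells help B cells in germinal centres. They are directed by the transcription factor BCL6, reach B cell follicles through the chemokine receptor CXCR5, and act through IL-21, CD40 ligand and IL-4. IL-6 and IL-21 promote this fate through STAT3, whereas IL-2 and the repressor BLIMP1 oppose it. Follicular regulatory cells share CXCR5 and PD1 with Tfh cells but also carry FOXP3. In tumours, cells with the Tfh surface phenotype have been found near B cells and lymphoid aggregates.

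Relative to the culture, the tumour libraries had higher RNA levels of many interferon response genes and of a smaller part of the chemokine, myeloid, MHC class II and regulatory T cell genes. They had lower levels of Il21, of most mitosis genes and of part of the DNA replication, glycolysis, hypoxia response and naive-cell genes. With limma on log2(TPM + 1) and a Benjamini-Hochberg adjusted p below 0.05, 241 genes were higher (1.21% of those tested) and 406 were lower (2.03%). A gene is said to have risen or fallen only where it was called in this way. Without regard to the test, all tumour libraries lay above all culture libraries for 2266 genes (11.3%) and below them for 2788 (14.0%). An unadjusted p below 0.05 was reached by 3879 genes (19.4%, both directions together). Counts of list members below are to be read against these shares. The median log2 fold change of all tested genes was 0.02. In bulk RNA, fewer cells of a type and less RNA per cell cannot be told apart.

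**Figure D1:**
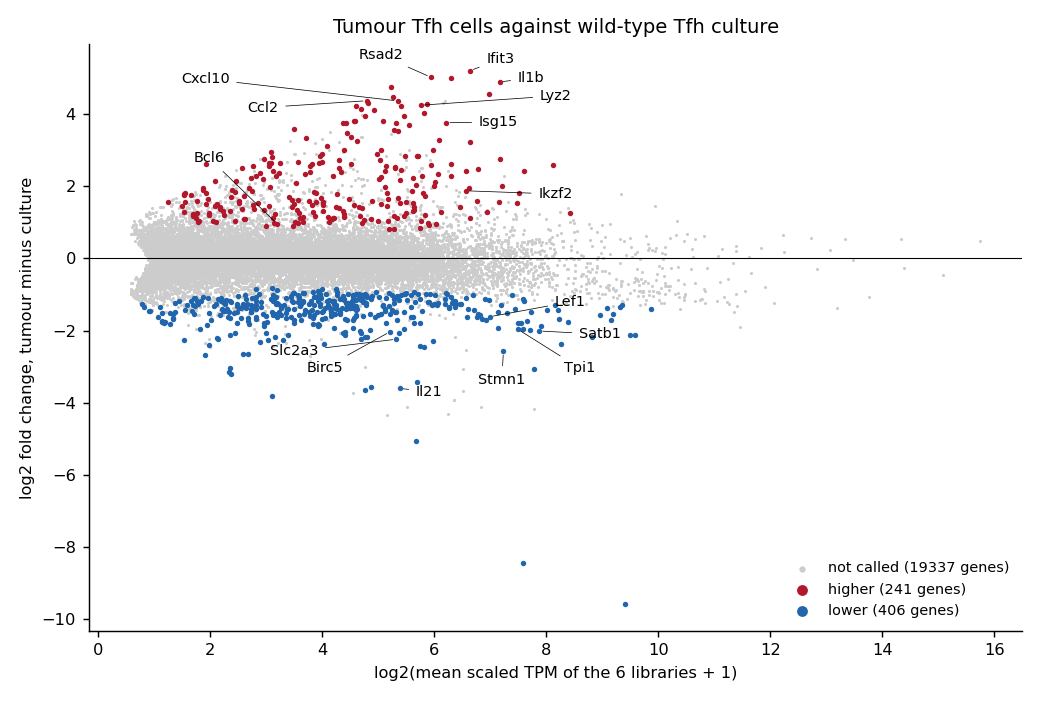
Log2 fold change (tumour minus culture) of each of the 19984 tested genes against its mean level, log2(mean scaled TPM + 1), with called genes in colour. The 241 higher genes reach a log2 fold change above 5, with Ifit3 at 5.21, and Il21, at -3.60, is among the genes furthest down; the lowest points are pseudogene models.

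The tumour libraries were more unlike each other than the culture libraries. Spearman correlations over genes ranged from 0.865 to 0.869 within the tumour group, from 0.902 to 0.920 within the culture and from 0.869 to 0.883 between them. Genes listed at 0 made up 14.5% to 18.0% of symbols in the tumour libraries and 8.20% to 13.7% in the culture, and the files carry no depth. Satellite-like repeat models took 18.6%, 3.41% and 14.5% of TPM in tumour replicates 1, 2 and 3, and 2.70%, 13.0% and 8.32% in culture replicates 1, 2 and 3. Tumour replicate 2 stood apart: it had the highest of the tumour values for 203 of the 241 genes called higher. Without it, 318 genes were higher and 481 lower, and 204 of the 241 and 342 of the 406 were called again. Every one of the 647 kept its direction, but that fit reuses libraries on which they were called, so this is no independent support. The median log2 fold change of the 241 was 1.79 with all libraries and 1.52 without tumour replicate 2. The summed level of 28 macrophage and monocyte markers, 360.3, 2270.4 and 622 TPM in tumour replicates 1, 2 and 3 against 153, 152 and 174 TPM in the culture, had the same order among the tumour libraries as most interferon and chemokine genes described below, an order found in 18 of the 45 gene list sums. The part of such cells in the results was not tested.

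How many genes passed the test depended on each library. Where 6 counts follow a count below, they are those without tumour replicates 1, 2 and 3 and then without culture replicates 1, 2 and 3. Where 5 counts follow, they are those on the deposited scale, with no filter, with a filter at 5 TPM, among named protein-coding genes alone and with all 12 libraries in the fit. Without each library in turn, genes called higher numbered 716, 318, 56, 0, 4 and 28, and genes called lower numbered 696, 481, 97, 6, 14 and 122. Without culture replicate 1, limma thus called no gene higher, although 1346 had an unadjusted p below 0.05 and a positive fold change. The 6 genes still called lower there were processed pseudogenes and an immunoglobulin segment. Every gene named below as risen or fallen therefore lost its call without that library. All 647 called genes kept their direction in each of these fits, which reuse the libraries on which they were called.

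**Figure D2:**
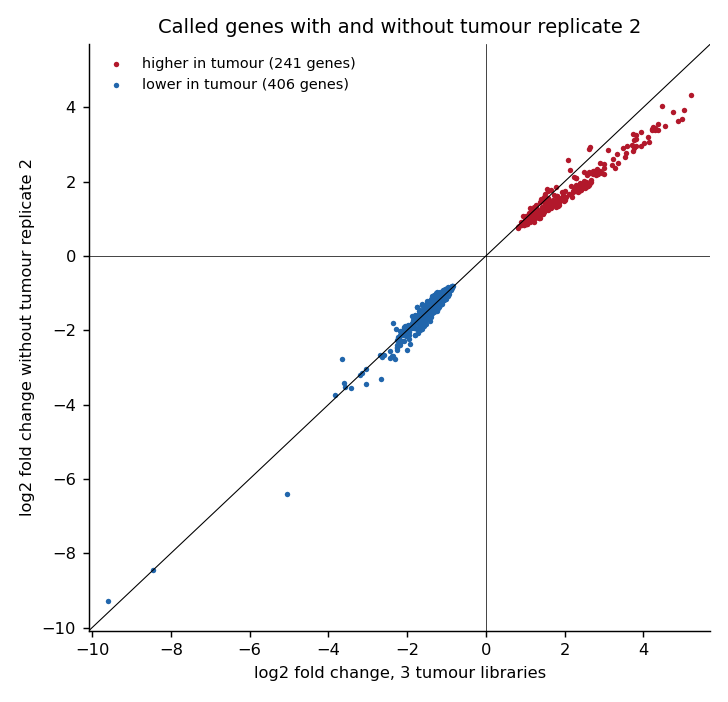
Log2 fold change of the 241 higher and 406 lower genes fitted with 3 tumour libraries (horizontal) and without tumour replicate 2 (vertical), with the line of equality. The fits share libraries. All points keep their sign, and most of the higher genes lie below the line, the median moving from 1.79 to 1.52.

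The labelled cell type was checked with 17 T cell identity genes. Their summed level was 2389.8, 3178 and 2193 TPM in tumour replicates 1, 2 and 3 and 3278, 2638 and 2608 TPM in the culture. None of them was called by limma, and 1 was higher and 1 lower at an unadjusted p below 0.05. Without overlap, 5 of the 17 lay below the culture and 1 above it, against 14.0% and 11.3% of all genes. The list's median log2 fold change was -0.22, with 14 members negative and 3 positive. Cd3e, a chain of the T cell receptor complex, had 162, 216 and 185 TPM in the tumour libraries and 259.8, 206 and 179 TPM in the culture. Cd4, which encodes the co-receptor used in the sort, had 105, 122 and 99.9 against 149, 124 and 109.8 TPM. Cd3e overlapped between the groups, and so did Cd4. Cd8a, the co-receptor of cytotoxic T cells, stayed at 5.13, 3.24 and 4.07 TPM in the tumour libraries and 5.25, 4.85 and 5.55 TPM in the culture.

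Cxcr5 and Pdcd1 encode the surface proteins on which the tumour cells were sorted, so their levels are a check and no finding. Cxcr5 (chr9, 44511787 to 44561877, minus strand; this and all gene positions are those of GENCODE M21 on GRCm38, the mm10 build) had 12.8, 7.74 and 12.3 TPM in the tumour libraries and 6.68, 4.79 and 5.18 TPM in the culture, a log2 fold change of 0.85 ± 0.24 (SE; adjusted p = 0.0994). Pdcd1, which encodes PD1 (chr1, 94038305 to 94052553, minus strand), had 22.8, 28.2 and 21.1 against 17.4, 13.9 and 16.4 TPM (0.56 ± 0.19, adjusted p = 0.158). For both genes every tumour library lay above every culture library, and neither passed the test. Of 22 Tfh receptor and cytokine genes, 1 rose and 2 fell, against 1.21% and 2.03% of all genes. The list's median log2 fold change was 0.02. The riser was Il6st (chr13, 112464070 to 112510086, plus strand), which encodes gp130, the signal chain shared by the receptors of IL-6 and related cytokines. Its levels were 52.02, 62.2 and 47.6 TPM in the tumour libraries and 32.2, 18.1 and 24.3 TPM in the culture (1.12 ± 0.24, adjusted p = 0.0467), without overlap.

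Il21 (chr3, 37222759 to 37232636, minus strand), the gene of the cytokine by which Tfh cells act on B cells, had the most negative fold change among called protein-coding genes with a mean of 5 TPM or more and no overlap. It had 8.05, 3.71 and 4.64 TPM in tumour replicates 1, 2 and 3 and 89.1, 80.8 and 57.7 TPM in culture replicates 1, 2 and 3, or 5.47 ± 2.29 against 75.9 ± 16.2 TPM (SD, n = 3 each). The log2 fold change was -3.60 ± 0.28 (adjusted p = 0.00314; 0.000704 to 0.0759 over the alternatives), and the highest tumour value was far below the lowest culture value. Il21r, which encodes the receptor chain for IL-21, fell from 97.1 ± 17.7 to 48.9 ± 1.58 TPM (-0.96 ± 0.20, adjusted p = 0.0410). The culture had received IL-21 itself, and the part of this in the levels of Il21 and Il21r was not tested.

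Other helper genes of this list differed between libraries of one group. Icos, a costimulatory receptor needed for Tfh cells, had 118, 269 and 118 TPM in the tumour libraries and 66.1, 42.2 and 58.1 TPM in the culture (1.49 ± 0.35, adjusted p = 0.0583). Cxcr4, a receptor for the germinal centre dark zone chemokine, had 15.4, 57.7 and 22.2 against 9.07, 6.84 and 7.37 TPM (1.69, adjusted p = 0.0708). Both were highest in tumour replicate 2 and had no overlap between groups, and neither passed the test. Cd40lg, which encodes CD40 ligand, lay below the culture, at 57.2, 25.2 and 44.5 against 104, 86.1 and 76.97 TPM, and did not pass either (-1.12, adjusted p = 0.0860). Il4, the other B cell helper cytokine, was low in both groups, at 8.08, 2.13 and 3.10 against 5.11, 2.94 and 5.14 TPM, and overlapped.

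Of 15 Tfh transcription factor genes, 2 rose and 1 fell, against 1.21% and 2.03% of all genes. The list's median log2 fold change was -0.10. Bcl6 (chr16, 23965052 to 23988852, minus strand), the lineage-defining repressor, rose from 5.84, 4.73 and 4.94 TPM in the culture to 9.57, 13.3 and 10.4 TPM in the tumour libraries (0.96 ± 0.20, adjusted p = 0.0416; 0.0251 to 0.222 over the alternatives). Every tumour value was above every culture value, and the tumour libraries differed little among themselves. Tox (chr4, 6686353 to 6991557, minus strand), a nuclear factor of Tfh and of exhausted T cells, rose from 12.9, 9.62 and 13.9 to 31.8, 25.6 and 26.4 TPM (1.15 ± 0.20, adjusted p = 0.0267). In contrast to most risers, Tox was highest in tumour replicate 1.

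The related factors TCF1 and LEF1 keep T cells responsive to the Tfh programme and are also high in naive cells. Lef1 (chr3, 131110471 to 131224356, plus strand) fell from 229.5, 189 and 151 TPM in the culture to 80.2, 39.5 and 69.2 TPM in the tumour libraries (-1.62 ± 0.30, adjusted p = 0.0306). Tcf7, which encodes TCF1, had 103, 55.9 and 99.8 TPM in the tumour libraries and 197, 151 and 132 TPM in the culture, with no overlap, and did not pass the test (-0.92, adjusted p = 0.127). Maf, a factor for Il21 and Il10, had 37.8, 133 and 49.3 against 16.7, 11.5 and 20.6 TPM (1.93, adjusted p = 0.0552). All Maf values in the tumour group exceeded those in the culture, but replicate 2 was more than 2 times the other tumour libraries. Tfh factors called higher without each library numbered 3, 2, 0, 0, 0 and 0, and those called lower were 1, 1, 0, 0, 0 and 0. Of 9 genes of factors that oppose the Tfh fate, limma called none (2 higher and 1 lower at an unadjusted p below 0.05). Among them, Prdm1, which encodes BLIMP1, had 10.2, 41.6 and 18.4 TPM in the tumour libraries and 8.78, 4.11 and 7.70 TPM in the culture (1.47, adjusted p = 0.128), again highest in tumour replicate 2.

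**Figure D3:**
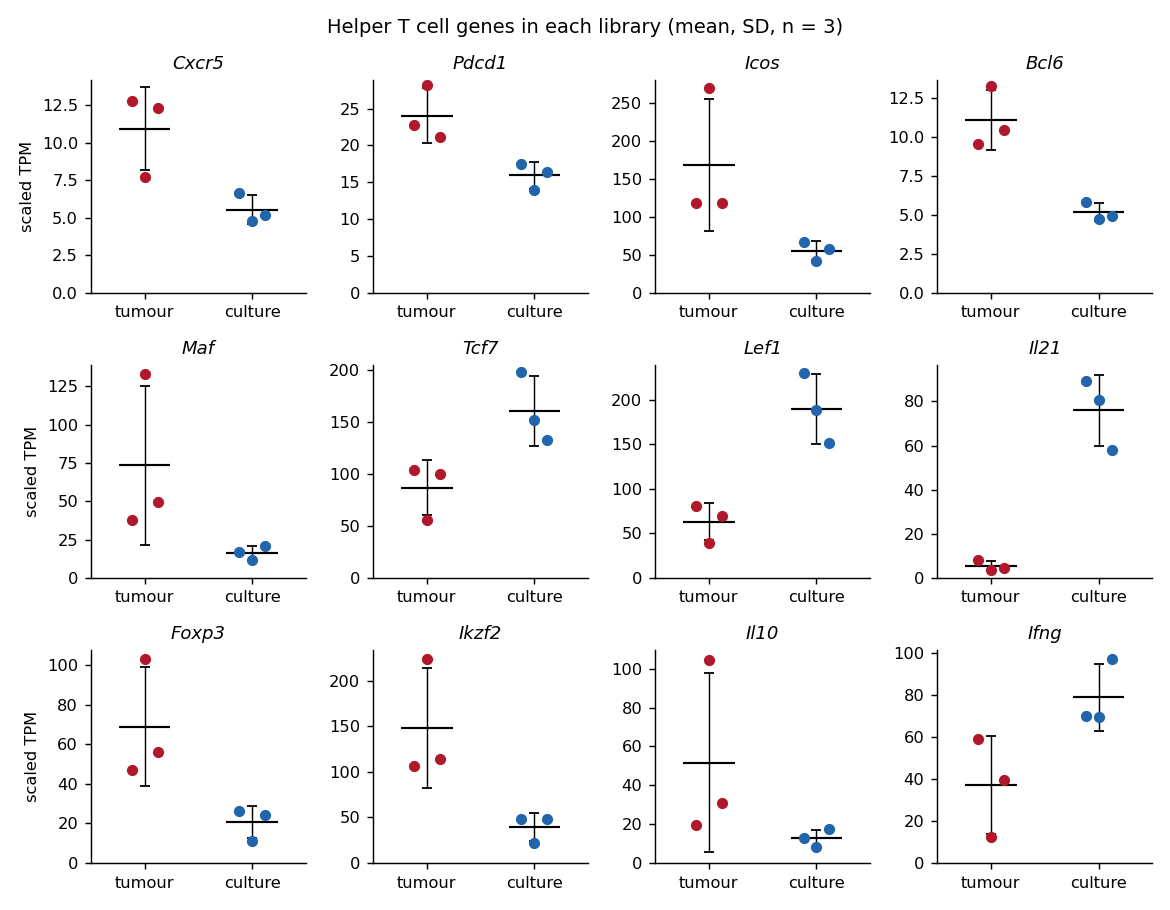
Scaled TPM of 12 helper T cell genes in each tumour and culture library (points), with group means (lines) and SD (bars, n = 3); each panel has its own axis from 0. Il21 and Lef1 lie far below the culture in all tumour libraries, whereas Icos, Maf, Foxp3, Ikzf2 and Il10 have their largest value in tumour replicate 2.

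Genes that respond to STAT3, the factor through which IL-6 and IL-21 act, were split. Of 21 tested, 1 rose (Il6st) and 3 fell, among them Il21 and Il21r, with a median log2 fold change of -0.01. Of 13 genes of the IL-2 and STAT5 pathway, which opposes Tfh cells, 1 rose and none fell by limma (3 had an unadjusted p below 0.05 and a negative fold change). It was Socs2 (chr10, 95385362 to 95417180, minus strand), a STAT5-induced feedback inhibitor, at 38.6, 40.9 and 36.5 TPM in the tumour libraries and 18.4, 13.3 and 22.1 TPM in the culture (1.09 ± 0.22, adjusted p = 0.0367). Il2 itself had 61.7, 13.4 and 38.1 against 101, 92.95 and 94.7 TPM (-1.57, adjusted p = 0.109). All tumour libraries lay below the culture for Il2, replicate 2 the furthest, and the gene did not pass the test.

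Of 26 genes of the regulatory and follicular regulatory T cell programme, 4 rose and none fell. With the 6 leave-out fits the number higher was 14, 6, 0, 0, 0 and 0. The 5 counts by other processing were 1, 0, 9, 10 and 6. The median log2 fold change was 1.05, against 0.02 for all genes, and 0.91 without tumour replicate 2. All tumour libraries lay above all culture libraries for 15 of the 26, against 11.3% of all genes. Limma gave 16 an unadjusted p below 0.05 upward and 0 downward.

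Ikzf2 (chr1, 69531214 to 69687245, minus strand) encodes HELIOS, a factor of regulatory cells. It rose from 48.3, 22.2 and 48.2 TPM in the culture to 107, 224 and 114 TPM in the tumour libraries (1.88 ± 0.38, adjusted p = 0.0391). Lrrc32 (chr7, 98489283 to 98502181, plus strand), the GARP protein that holds latent TGFβ on the cell surface, rose from 8.75, 4.75 and 9.38 to 17.6, 24.9 and 25.9 TPM (1.49 ± 0.27, adjusted p = 0.0299). Nt5e (chr9, 88327197 to 88372092, plus strand), the CD73 enzyme that makes adenosine, had 34.03, 38.9 and 31.9 TPM in the tumour libraries against 19.02, 12.7 and 17.5 TPM in the culture (1.06 ± 0.21, adjusted p = 0.0357). Replicate 2 stood apart from the other tumour libraries for Ikzf2 but not for Lrrc32 or Nt5e. Tnfrsf1b (chr4, 145213463 to 145246870, minus strand), a receptor for TNF that is high on activated regulatory cells, rose from 18.7 ± 5.39 to 76.6 ± 43.97 TPM (1.87, adjusted p = 0.0449).

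Foxp3 (chrX, 7573644 to 7595245, plus strand), the defining factor of regulatory cells, had 47.1, 103 and 56.2 TPM in the tumour libraries and 26.1, 11.3 and 24.4 TPM in the culture. The groups did not overlap, and the gene narrowly missed the test (1.70 ± 0.38, adjusted p = 0.0522; 0.0219 to 0.183 over the alternatives). Il1r2, a decoy receptor for IL-1 on follicular regulatory cells, was in the same position, at 40.3, 175 and 56.3 against 17.7, 12.1 and 18.1 TPM (adjusted p = 0.0516). Entpd1, the CD39 enzyme upstream of CD73, had 30.8, 177 and 67.5 against 14.5, 16.4 and 23.04 TPM (adjusted p = 0.0893). Il10, the gene of an immunosuppressive cytokine, had 19.6, 105 and 30.8 against 12.6, 8.27 and 17.2 TPM (adjusted p = 0.147). Each of these genes was highest in tumour replicate 2.

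Signature genes of other helper lineages passed the test in few cases. Of 21 Th1 genes, 2 rose, among them the chemokine gene Ccl5, and none fell by limma (4 had an unadjusted p below 0.05 and a negative fold change). Over all genes, 1.21% rose and 2.03% fell. Tbx21, which encodes T-bet, had 12.7, 18.2 and 14.3 TPM in the tumour libraries and 11.3, 6.54 and 9.99 TPM in the culture, with no overlap (0.66, adjusted p = 0.182). Ifng, the Th1 cytokine gene, had 59.3, 12.4 and 39.8 against 69.9, 69.6 and 97.4 TPM, below the culture in all tumour libraries (-1.30, adjusted p = 0.192). It was lowest in tumour replicate 2, in which most interferon response genes described below were highest. A link between these levels was not tested.

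Of 14 Th17 genes, none rose (2 had an unadjusted p below 0.05 upward) and 2 fell. Il22 (chr10, 118204942 to 118210047, plus strand), a cytokine that acts on epithelia, fell from 15.6, 10.1 and 9.94 TPM in the culture to 2.71, 1.44 and 1.95 TPM in the tumour libraries (-2.08 ± 0.25, adjusted p = 0.00971). It was uniformly low in the tumour group. Of 12 Th2 genes, only Il13 passed the test, at 1.09, 0.841 and 1.01 against 4.37, 2.54 and 4.76 TPM (-1.27, adjusted p = 0.0399), while Gata3, the Th2 factor, overlapped at 37.9, 38.9 and 43.4 against 44.1, 27.5 and 41.6 TPM. 1 of the Th2 genes had an unadjusted p below 0.05 upward.

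Cytotoxic granule genes were called in 1 case: of 18, 1 fell and none rose (1 had an unadjusted p below 0.05 upward). Gzma, the gene of granzyme A, fell from 8.92, 7.28 and 5.58 TPM in the culture to 0.301, 1.34 and 1.14 TPM in the tumour libraries (-2.12 ± 0.29, adjusted p = 0.0126). Gzmb, the gene of granzyme B, ranged within the tumour group from below to above the whole culture group (86.4, 1127 and 251 against 315, 227 and 232 TPM; adjusted p = 0.928).

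Of 20 inhibitory receptor and exhaustion genes, 2 rose and none fell, 7 having an unadjusted p below 0.05 upward and 0 downward in limma. Beside Tox this was Cd274 (chr19, 29367455 to 29388095, plus strand), which encodes the PD1 ligand PD-L1 and is interferon-inducible. Its levels were 133, 173 and 104 TPM in the tumour libraries and 56.2, 59.2 and 68.8 TPM in the culture (1.12 ± 0.23, adjusted p = 0.0421). Limma called none of 20 costimulatory and TNF family genes (2 higher and 4 lower at an unadjusted p below 0.05). Tnfrsf1b, given above, and Tnfsf4, given in the closing section, were called but are outside that list. Limma also called none of 20 chemokine and migration receptor genes (8 and 2). The tumour libraries nevertheless lay above the culture without overlap for 9 of those receptors, against 11.3% of all genes. Among them, Ccr8, a receptor of tumour regulatory cells, had 20.7, 50.1 and 25.5 against 14.4, 8.10 and 11.99 TPM (adjusted p = 0.0764).

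Naive-cell and recirculation genes were lower in part. Of 22, 4 fell and none rose (0 had an unadjusted p below 0.05 upward in limma). Those that fell numbered 6, 4, 1, 0, 0 and 2 in the 6 leave-out fits and 3, 2, 4, 5 and 4 by other processing. The list's median log2 fold change was -0.59. Satb1 (chr17, 51736187 to 51833290, minus strand), a chromatin organiser of naive T cells that restrains the Tfh fate, fell the most. It had 85.2, 106 and 83.2 TPM in the tumour libraries and 434, 406 and 287 TPM in the culture (-2.01 ± 0.24, adjusted p = 0.00932). Igfbp4, a binding protein for insulin-like growth factors, fell from 457, 411 and 261 to 117, 110.2 and 77.1 TPM (-1.87, adjusted p = 0.0170). Dapl1, a gene of resting T cells, fell from 11.2 ± 2.84 to 2.82 ± 1.59 TPM (adjusted p = 0.0392).

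Of 18 tissue retention and integrin genes, 1 rose and none fell (7 upward and 0 downward at an unadjusted p below 0.05 in limma). Itgb8 (chr12, 119158022 to 119238802, minus strand), the integrin chain that frees active TGFβ from GARP, rose from 8.13, 4.45 and 8.69 TPM in the culture to 17.7, 32.3 and 19.4 TPM in the tumour libraries (1.57 ± 0.30, adjusted p = 0.0335). Both it and Lrrc32 also belong to the 19 tested TGFβ and SMAD genes. Of these, 4 rose and none fell, against 1.21% and 2.03% of all genes (1 had an unadjusted p below 0.05 downward). The others were Tgfbr1, the type I receptor of TGFβ, at 47.1, 48.8 and 46.7 against 20.96, 20.8 and 25.8 TPM (1.05, adjusted p = 0.0241), and Skil, which encodes the SMAD repressor SnoN (1.32, adjusted p = 0.0404). TGFβ genes called higher in the 6 leave-out fits numbered 6, 4, 0, 0, 0 and 0, and by other processing 1, 1, 5, 5 and 5. The culture, unlike the tumour, contained antibodies against TGFβ, IL-4 and IFNγ. Their part in the differences given here for TGFβ genes and below for IFNγ genes was not tested.

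Of the 45 lists, the type I interferon response had the highest median fold change and the most genes called higher. Type I interferons act through factors that include STAT2 and IRF9 and bind the interferon-stimulated response element upstream of their targets. IFNγ raises MHC class I and GTPases that attack vacuolar microbes. Of 30 type I response genes, 16 rose and none fell, and the 6 leave-out counts were 30, 26, 5, 0, 0 and 3. By other processing, 8, 6, 24, 25 and 26 were called, in the order of the 5 counts given above. For all 30 of them every tumour library was above every culture library, against 11.3% of all genes, and all 30 had an unadjusted p below 0.05 upward. This list, like the others, was chosen with earlier results of these data known. The median log2 fold change was 2.52, and 1.78 without tumour replicate 2.

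The promoters of interferon response genes are shown because the response element can be seen in them. Each sequence holds the 250 bases before the RefSeq gene start (GRCm38.p6), 5′ to 3′ on the gene's strand, and capitals mark matches to GAAANNGAAA on either strand.
Ifit3 (chr19:34583279-34583528, plus strand): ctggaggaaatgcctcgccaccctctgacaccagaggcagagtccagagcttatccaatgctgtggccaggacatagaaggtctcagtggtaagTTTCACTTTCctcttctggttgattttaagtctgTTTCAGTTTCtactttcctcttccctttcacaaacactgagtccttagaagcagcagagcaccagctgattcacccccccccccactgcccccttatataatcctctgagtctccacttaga
Rsad2 (chr12:26456453-26456702, minus strand): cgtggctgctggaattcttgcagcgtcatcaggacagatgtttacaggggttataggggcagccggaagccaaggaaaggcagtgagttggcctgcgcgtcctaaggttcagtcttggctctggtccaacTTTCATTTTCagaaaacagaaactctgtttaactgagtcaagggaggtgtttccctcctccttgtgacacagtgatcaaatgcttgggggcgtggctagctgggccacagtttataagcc
Isg15 (chr4:156200819-156201068, minus strand): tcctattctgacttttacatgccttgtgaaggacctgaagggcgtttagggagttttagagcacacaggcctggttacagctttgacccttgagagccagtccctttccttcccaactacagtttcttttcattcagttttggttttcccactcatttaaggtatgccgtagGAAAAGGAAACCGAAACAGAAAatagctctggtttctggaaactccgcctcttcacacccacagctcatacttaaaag
Cxcl10 (chr5:92348890-92349139, minus strand): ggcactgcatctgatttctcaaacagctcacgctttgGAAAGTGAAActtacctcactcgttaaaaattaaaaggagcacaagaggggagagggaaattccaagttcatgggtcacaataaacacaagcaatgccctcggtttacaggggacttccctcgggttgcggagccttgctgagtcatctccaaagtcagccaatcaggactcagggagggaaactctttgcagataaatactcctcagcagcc
In Isg15 there are 3 overlapping matches, which run together in capitals. The motif was in 11 of 23 type I response promoters with a RefSeq entry (47.8%) and in 13 of 25 promoters of the IFNγ list (52.0%). It was in 36 of 135 promoters of genes called higher (26.7%) and in 8 of 244 of genes called lower (3.28%). Of the promoters of all tested genes 2.87% held it, and of all 27025 RefSeq promoters read here 3.04%. The 250 bases before the RefSeq start of Irf7, which lie partly inside its GENCODE interval, held none. A match describes the letters and does not show binding.

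Ifit3 (chr19, 34583531 to 34588731, plus strand), which encodes an antiviral protein of the IFIT family, had the highest fold change of the called genes with a mean of 5 TPM or more. It had 42.4, 433 and 109 TPM in tumour replicates 1, 2 and 3 and 1.79, 2.37 and 3.34 TPM in the culture, a log2 fold change of 5.21 ± 0.69 (adjusted p = 0.0124; 4.32 without tumour replicate 2). The lowest tumour value was more than 10 times the highest culture value. Its near-copy Ifit3b rose as well (3.81), and reads of such pairs may have been divided between them. Rsad2 (chr12, 26442746 to 26456452, minus strand), the gene of the antiviral enzyme viperin, had 10.1, 275 and 73.03 against 0.968, 0.934 and 0.721 TPM (5.03 ± 0.94, adjusted p = 0.0310). Isg15 (chr4, 156199424 to 156200818, minus strand), a ubiquitin-like modifier, had 41.6, 312 and 67.7 against 5.63, 6.26 and 6.59 TPM (3.76 ± 0.62, adjusted p = 0.0222). Irf7 (chr7, 141262706 to 141266481, minus strand), the factor that amplifies type I interferon production, had 22.4, 254 and 62.1 against 2.95, 2.20 and 2.96 TPM (4.29 ± 0.71, adjusted p = 0.0227). The order of the tumour libraries was the same for each of these genes, replicate 2 highest and replicate 1 lowest. Mx1, the gene of a GTPase against influenza virus, had the same order (14.2, 198 and 45.5 against 5.84, 5.21 and 5.43 TPM) and did not pass the test (adjusted p = 0.0743).

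Of 32 IFNγ and MHC class I genes, 11 rose and none fell, 28 having an unadjusted p below 0.05 upward and 0 downward in limma. The 6 counts of those called higher were 19, 11, 6, 0, 0 and 4, and the 5 counts were 9, 9, 17, 20 and 10. The median log2 fold change was 1.13, and 0.87 without tumour replicate 2. In the genes named here, tumour replicate 2 stood less far above the other tumour libraries. Irgm1 (chr11, 48861968 to 48871683, minus strand), an immunity-related GTPase, had 77.9, 114 and 78.98 TPM in the tumour libraries and 19.8, 13.6 and 19.8 TPM in the culture (2.28 ± 0.24, adjusted p = 0.00819). Iigp1, another of that family, had 81.7, 90.8 and 65.96 against 19.7, 9.59 and 20.9 TPM (2.24 ± 0.30, adjusted p = 0.0124). Gbp6, which encodes a guanylate-binding protein, had 98.4, 210.1 and 98.98 against 23.6, 15.02 and 22.2 TPM (2.61, adjusted p = 0.0104). Guanylate-binding protein genes resemble each other, so their individual values are less certain than their sum.

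Genes of factors within the response were higher as well. Stat2, which encodes a signal transducer of type I interferons, rose from 17.3 ± 1.78 TPM in the culture to 82.9 ± 50.2 TPM in the tumour libraries (2.04, adjusted p = 0.0284), and Irf8, a factor of the same pathway that myeloid and B cells also use, from 32.7, 19.2 and 27.1 to 73.01, 67.1 and 74.1 TPM (1.44, adjusted p = 0.0190). H2-K1 and B2m, which encode the MHC class I heavy and light chains, lay above the culture without overlap and did not pass the test (adjusted p = 0.196 and 0.0800).

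**Figure D4:**
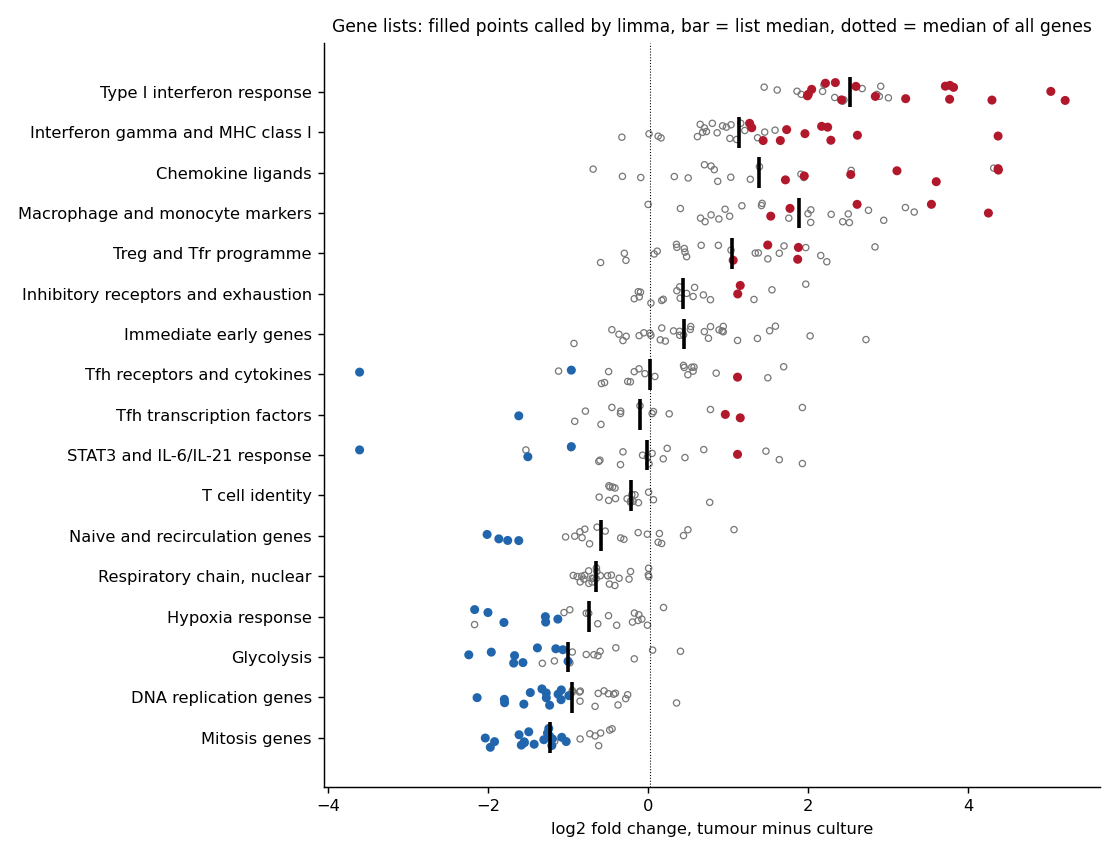
Log2 fold change of the tested members of 17 gene lists (points; filled where called by limma), with each list's median (bar) and the median of all genes (dotted line). Type I interferon genes lie at a median of 2.52 and mitosis genes at -1.23, whereas Tfh transcription factors are spread around -0.10.

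Of 23 chemokine ligand genes, 7 rose and none fell, against 1.21% and 2.03% of all genes. In limma, 16 had an unadjusted p below 0.05 upward and 0 downward, against 19.4% of all genes in either direction. The 6 counts of those called higher were 15, 10, 3, 0, 1 and 2, and the 5 counts were 5, 3, 8, 9 and 7. The list's median was 1.39, or 1.11 without tumour replicate 2. Cxcl10 (chr5, 92346638 to 92348889, minus strand), a ligand of the Th1 receptor CXCR3, rose from 2.23, 0.829 and 2.11 TPM in the culture to 21.1, 169 and 42.3 TPM in the tumour libraries (4.37 ± 0.64, adjusted p = 0.0154). Ccl2 (chr11, 82035571 to 82037453, plus strand), which attracts monocytes, rose from 0.200, 0.959 and 0.641 to 9.58, 124 and 25.02 TPM (4.37 ± 0.75, adjusted p = 0.0245). Cxcl3 (chr5, 90786103 to 90789600, plus strand), which attracts neutrophils, varied less among the tumour libraries, at 26.9, 40.9 and 21.2 against 3.18, 2.03 and 2.20 TPM (3.11 ± 0.27, adjusted p = 0.00436). Ccl5, which T and myeloid cells both make, had 26.5, 141 and 39.2 against 8.40, 8.49 and 8.10 TPM (2.53, adjusted p = 0.0399). Ccl7, Cxcl16 and Pf4 were the other genes called, at log2 fold changes of 3.60, 1.95 and 1.71.

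Inflammatory genes typical of myeloid cells were among those that rose the most. Il1b (chr2, 129364570 to 129371139, minus strand), the gene of IL-1β, had 19.3, 699 and 129 TPM in the tumour libraries and 3.27, 2.77 and 3.36 TPM in the culture (4.89 ± 1.03, adjusted p = 0.0427; 3.64 without tumour replicate 2). Il1rn, the gene of the IL-1 receptor antagonist, had 28.4, 569 and 134 against 5.26, 3.26 and 5.64 TPM (4.55, adjusted p = 0.0334). Acod1, which makes itaconate in activated macrophages, had 13.1, 119 and 28.7 against 0.802, 0.890 and 0.907 TPM (4.31, adjusted p = 0.0163). Each was far higher in tumour replicate 2 than in the other tumour libraries, and replicate 1 still exceeded the culture. Clec4d, a lectin receptor for microbial lipids, Mpeg1, the gene of the pore-forming protein perforin-2, and Spp1, the gene of osteopontin, had the same order of libraries, with log2 fold changes of 4.13, 4.23 and 4.03.

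Markers of other cell types were measured in the same libraries. Of 28 macrophage and monocyte markers, 5 rose and none fell, 22 having an unadjusted p below 0.05 upward and 0 downward in limma. Above the culture without overlap were 22 of them, against 11.3% of all genes. The 6 counts of those called higher were 18, 10, 1, 0, 0 and 0, and the 5 counts were 1, 1, 9, 13 and 13. None of the 28 was listed at 0 in any of the 6 libraries, and 26 of them were highest in tumour replicate 2 among the tumour libraries. Lyz2 (chr10, 117277331 to 117282321, minus strand), the gene of macrophage lysozyme, had 29.7, 218 and 61.9 against 4.45, 1.95 and 2.83 TPM (4.25 ± 0.62, adjusted p = 0.0147). Csf1r, the receptor on which macrophages depend, had 2.19, 15.4 and 5.85 against 0.535, 0.843 and 0.850 TPM (adjusted p = 0.0746), and Cd14, a receptor for bacterial lipopolysaccharide, 3.25, 62.3 and 14.1 against 0.447, 0.807 and 0.954 TPM (adjusted p = 0.0713). C1qb, of the first complement component, had 0.952, 9.65 and 0.633 against 0.269, 0.181 and 0.195 TPM (adjusted p = 0.273). The other markers called were Arg1, Adgre1, Spi1 and Fcer1g, with log2 fold changes of 1.53, 1.77, 2.61 and 3.54. Adgre1 encodes the macrophage antigen F4/80, and Arg1 encodes arginase.

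The other marker lists were measured in the same way. Of 19 dendritic cell and MHC class II markers, 5 rose and none fell by limma (1 had an unadjusted p below 0.05 downward), and the 5 counts were 4, 0, 6, 7 and 5. Their summed levels were 242, 746 and 332 TPM in the tumour libraries and 109, 93.1 and 90.8 TPM in the culture. Cd74, the MHC class II invariant chain, had 78.99, 279 and 125 against 32.3, 23.2 and 22.1 TPM (2.41, adjusted p = 0.0248). Fscn1, an actin bundler of mature dendritic cells, was lowest in tumour replicate 2 (22.2, 7.63 and 23.8 against 3.83, 3.99 and 1.68 TPM; adjusted p = 0.0402). Neutrophil markers summed to 27.1, 413 and 94.3 TPM in the tumour libraries and 17.9, 28.5 and 33.02 TPM in the culture. Of 11 tested, 1 rose, the collagenase gene Mmp8 at 4.30, 6.73 and 3.40 against 0.506, 0.458 and 0.438 TPM, and 3 had an unadjusted p below 0.05 upward. S100a8, a calcium-binding protein abundant in neutrophils, had 0, 80.8 and 16.7 against 0, 1.09 and 0.330 TPM and so was listed at 0 in 1 library of each group, and Elane, neutrophil elastase, was listed at 0 in 2 tumour libraries. B cell markers summed to 198, 161 and 164 against 117, 103 and 109.6 TPM, and 1 of 16 rose (Cd79b, of the B cell receptor, at 3.67, 3.40 and 3.64 against 1.14, 1.03 and 1.64 TPM; 8 had an unadjusted p below 0.05 upward).

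Epithelial and colon carcinoma markers summed to 17.00, 29.2 and 22.7 TPM in the tumour libraries and 21.1, 23.6 and 25.9 TPM in the culture, and 0 of 8 tested members were called by limma, 0 higher and 1 lower at an unadjusted p below 0.05. Of their members, Cldn3, which encodes a tight junction protein, was listed at 0 in 2 tumour libraries and the keratin gene Krt19 in 1. The CD8 T cell markers summed to 36.4, 39.4 and 27.2 against 36.6, 34.7 and 35.8 TPM, and none of 5 was called or had an unadjusted p below 0.05. The order of the tumour libraries in the sums, replicate 2 highest and replicate 1 lowest, was that of 18 of the 45 lists. They included the type I interferon genes (996, 5799 and 1654 TPM), the chemokine ligands (402, 1842 and 551 TPM), the macrophage, dendritic cell, neutrophil and epithelial markers, and also the immediate early (1319.6, 3592 and 1713 TPM), STAT3 and hypoxia response genes. Many interferon response, chemokine and MHC genes are expressed by myeloid cells as well as T cells. Of 9 natural killer and innate lymphoid markers, Fcer1g rose and Gzma and Klra7 fell. Fibroblast markers summed to 360.4, 428 and 292 TPM in the tumour libraries and 515, 382 and 564 TPM in the culture, with overlap. That list includes Thy1, which is also a T cell identity gene. A single member had a mean of 325 TPM in the tumour libraries, so the sum does not measure fibroblast RNA. Limma called none of the 11 (0 upward and 1 downward at an unadjusted p below 0.05), none of 7 endothelial markers (1 and 0) and none of 3 mast cell and basophil markers (1 and 0). Among 6 erythroid and platelet markers, Pf4, counted above with the chemokines, was called.

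**Figure D5:**
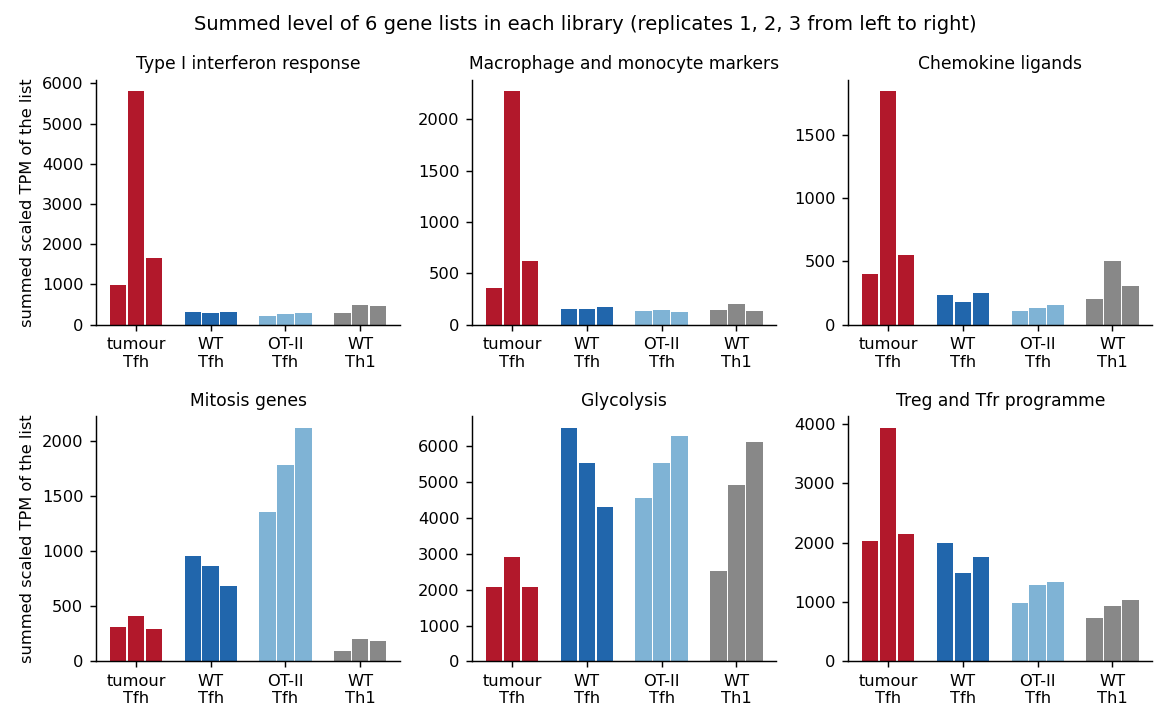
Summed scaled TPM of 6 gene lists in each of the 12 libraries (bars from 0, replicates 1 to 3 from left to right within each group). Tumour replicate 2 has the tallest bar for interferon response genes, macrophage markers and chemokines, while mitosis and glycolysis genes are lower in all 3 tumour libraries than in all 3 wild-type Tfh cultures.

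Of the 45 lists, mitosis genes had the lowest median fold change and the most genes called lower. Of 25 mitosis genes, 17 fell and none rose, with 0 and 22 at an unadjusted p below 0.05 upward and downward in limma. The 6 counts of those called lower were 18, 20, 5, 0, 0 and 9, and the 5 counts were 14, 13, 19, 19 and 13. For 23 of them every tumour library was below every culture library, against 14.0% of all genes, and the median log2 fold change was -1.23 (-1.26 without tumour replicate 2). The summed level was 313, 412 and 289.6 TPM in the tumour libraries and 958, 869 and 681 TPM in the culture, so that tumour replicate 2 did not stand apart here as it did above.

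Birc5 (chr11, 117849251 to 117855743, plus strand), which encodes survivin of the chromosomal passenger complex, fell from 69.5, 62.1 and 44.00 TPM in the culture to 12.7, 15.5 and 11.9 TPM in the tumour libraries (-2.03 ± 0.22, adjusted p = 0.00819). Tpx2, a spindle assembly factor that activates Aurora A, fell from 52.9, 47.98 and 34.4 to 10.9, 13.6 and 7.92 TPM (-1.97 ± 0.25, adjusted p = 0.0111). Nusap1, a microtubule-binding protein of the spindle, fell from 33.8, 28.7 and 22.7 to 6.76, 6.93 and 6.38 TPM (-1.92, adjusted p = 0.00819). The tumour values of these genes were within a narrow range and far below the culture. Top2a, the topoisomerase that untangles sister chromatids, fell from 162 ± 26.9 to 54.8 ± 9.70 TPM (-1.55). Mki67, which encodes the proliferation antigen Ki-67, overlapped through tumour replicate 2 (27.6, 58.7 and 27.6 against 61.3, 61.8 and 44.2 TPM; -0.62, adjusted p = 0.332).

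Of 28 DNA replication genes, 13 fell and none rose (0 upward and 22 downward at an unadjusted p below 0.05 in limma), and the 6 counts were 14, 8, 3, 0, 1 and 5. With all 12 libraries in the fit only 2 were called lower, the 5 counts being 13, 8, 17, 16 and 2. The median log2 fold change was -0.95. Ccne1 (chr7, 38097984 to 38107534, minus strand), the gene of cyclin E1, which starts S phase, fell from 34.95, 36.6 and 28.4 TPM in the culture to 7.94, 5.87 and 6.62 TPM in the tumour libraries (-2.14 ± 0.20, adjusted p = 0.00514). Rrm2 (chr12, 24708241 to 24714146, plus strand), the ribonucleotide reductase subunit that limits the supply of DNA precursors, fell from 90.1, 77.05 and 60.9 to 22.7, 17.8 and 22.6 TPM (-1.79 ± 0.21, adjusted p = 0.00932). Uhrf1, which guides DNA methylation to new strands, fell from 81.9 ± 16.2 to 22.99 ± 5.46 TPM (-1.80, adjusted p = 0.0126), and Mcm3, a helicase subunit, had a log2 fold change of -1.27 (adjusted p = 0.0438). The tumour libraries lay below the culture without overlap for 22 of the 28, against 14.0% of all genes.

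Stmn1 (chr4, 134468320 to 134473843, plus strand), a tubulin-binding protein high in dividing lymphocytes, was among the 15 named genes furthest down. It had 43.7, 46.5 and 35.02 TPM in the tumour libraries and 318, 260.1 and 194 TPM in the culture (-2.58 ± 0.24, adjusted p = 0.00514). In contrast, limma called none of 24 genes of MYC and ribosome biogenesis (0 upward and 1 downward at an unadjusted p below 0.05). Myc itself, a driver of growth after T cell activation, overlapped at 115, 40.4 and 102 TPM in the tumour libraries and 151, 110.01 and 108 TPM in the culture (-0.64, adjusted p = 0.423).

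Part of the genes of glucose use fell as well. Of 21 glycolysis genes, 9 fell and none rose, against 2.03% and 1.21% of all genes. In limma, 0 were upward and 14 downward at an unadjusted p below 0.05, against 19.4% of all genes in either direction. The 6 counts of those called lower were 8, 13, 1, 0, 0 and 3, and the 5 counts were 6, 3, 11, 12 and 5. The list's median log2 fold change was -1.001. The summed level was 2078, 2909.5 and 2066 TPM in the tumour libraries and 6509, 5531 and 4305 TPM in the culture. Slc2a3 (chr6, 122727809 to 122801640, minus strand), the high-affinity glucose transporter GLUT3, fell from 85.2, 64.9 and 45.8 to 12.5, 11.3 and 14.1 TPM (-2.24 ± 0.25, adjusted p = 0.00819). Tpi1, triosephosphate isomerase, fell from 305, 313 and 229 to 53.03, 106 and 63.8 TPM (-1.96, adjusted p = 0.0157), and Pgk1 (chrX, 106187100 to 106203699, plus strand), the first ATP-yielding enzyme, from 542, 459 and 359 to 139, 154 and 128 TPM (-1.67 ± 0.23, adjusted p = 0.0126). Ldha (chr7, 46841475 to 46855627, plus strand), which makes lactate, fell from 938, 819 and 599.9 to 287, 330.5 and 272 TPM (-1.38 ± 0.26, adjusted p = 0.0313). No tumour value of these 4 genes reached the lowest culture value. Pkm and Gapdh lay below the culture in the same way without passing the test (adjusted p = 0.0563 and 0.118).

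Of 21 hypoxia response genes, targets of HIF factors, 6 fell and none rose, against 2.03% and 1.21% of all genes. In limma, 0 were upward and 9 downward at an unadjusted p below 0.05, against 19.4% of all genes in either direction. The 6 counts of those called lower were 6, 10, 1, 0, 0 and 1. The 5 counts were 2, 1, 7, 7 and 5. Egln3 (chr12, 54178981 to 54203860, minus strand), an oxygen-sensing prolyl hydroxylase, fell from 54.4, 45.1 and 34.4 TPM in the culture to 7.70, 11.6 and 8.11 TPM in the tumour libraries (-2.17 ± 0.24, adjusted p = 0.00819). Ankrd37 (chr8, 45996902 to 46005707, minus strand), a HIF target, fell from 44.1, 41.3 and 30.9 to 5.01, 19.2 and 6.83 TPM (-2.001 ± 0.41, adjusted p = 0.0404), and Bnip3l, a mitophagy receptor, from 329, 323 and 208 to 58.4, 124 and 69.9 TPM (-1.80, adjusted p = 0.0282). Bnip3, its relative, had 13.5, 71.6 and 19.9 against 157, 136 and 90.9 TPM, with no overlap, and missed the test (adjusted p = 0.0708). In the last 3 genes tumour replicate 2 was nearest to the culture. The list's median log2 fold change was -0.74.

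Promoters of a glycolytic and a hypoxia response gene are shown as examples of the short core of the hypoxia element, ACGTG, which also lies within the E-box of MYC-type factors. The windows and build are as above, and capitals mark matches on either strand. The Ankrd37 window precedes the RefSeq start but lies inside the longer GENCODE interval given above.
Pgk1 (chrX:106186850-106187099, plus strand): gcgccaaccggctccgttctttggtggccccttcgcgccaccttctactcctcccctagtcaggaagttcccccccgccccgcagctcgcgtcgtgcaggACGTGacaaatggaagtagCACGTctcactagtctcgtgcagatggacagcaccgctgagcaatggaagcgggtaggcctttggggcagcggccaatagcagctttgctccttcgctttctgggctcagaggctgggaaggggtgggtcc
Ankrd37 (chr8:45999851-46000100, minus strand): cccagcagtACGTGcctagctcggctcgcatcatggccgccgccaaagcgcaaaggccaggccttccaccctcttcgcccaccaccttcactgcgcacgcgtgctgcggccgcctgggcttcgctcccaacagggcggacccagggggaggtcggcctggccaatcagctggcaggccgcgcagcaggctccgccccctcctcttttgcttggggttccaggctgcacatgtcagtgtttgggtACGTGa
The core was in 9 of 20 glycolysis promoters with a RefSeq entry (45.0%) and in 10 of 17 hypoxia response promoters (58.8%). It was also in 7 of 21 promoters of mitosis genes (33.3%). Of the promoters of all tested genes 20.0% held it, and of all 27025 promoters 16.6%. It was in 57 of 244 promoters of genes called lower (23.4%) and in 23 of 135 of genes called higher (17.0%).

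Of 25 nuclear genes of the respiratory chain, limma called none. Below the culture without overlap were 18, against 14.0% of all genes. An unadjusted p below 0.05 was reached by 16 downward and none upward, against 19.4% of all genes in either direction. Their median log2 fold change was -0.65. Of 25 genes of cholesterol and fatty acid synthesis, 1 fell and none rose (0 had an unadjusted p below 0.05 upward). It was Scd2, a fatty acid desaturase, at 10.5, 6.75 and 9.37 TPM in the tumour libraries and 51.99, 37.7 and 32.3 TPM in the culture (-2.07 ± 0.24, adjusted p = 0.00911). No gene was called among 23 of the ATF4 amino acid response (2 upward and 3 downward at an unadjusted p below 0.05 in limma) or 20 of the unfolded protein response (3 and 1).

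Immediate early genes, which respond within minutes to receptor signals or to handling, were not called: 0 of 31 passed the test in limma, with 7 upward and 1 downward at an unadjusted p below 0.05. Their median log2 fold change was 0.44, and 0.07 without tumour replicate 2. Fos, an AP-1 subunit, had 5.57, 332 and 63.8 TPM in the tumour libraries and 12.6, 12.7 and 10.4 TPM in the culture (adjusted p = 0.391), from below the culture in replicate 1 to far above it in replicate 2. None of 14 heat shock genes (2 upward and 1 downward) and none of 20 survival and death genes (3 and 4) was called either. Of 15 anergy genes, Nt5e was called. Of 21 NF-kB targets and regulators, Cd83, a surface protein of activated lymphocytes and dendritic cells, rose from 14.3, 7.31 and 13.3 to 32.7, 38.9 and 29.4 TPM (1.49, adjusted p = 0.0267), and the inhibitor Tnip3 fell from 22.6, 20.98 and 17.5 to 5.52, 10.3 and 4.08 TPM (-1.56, adjusted p = 0.0319). Over all genes, 1.21% rose and 2.03% fell.

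Among the 15 named genes furthest down, several lay outside the lists. Trib2 (chr12, 15791727 to 15816922, minus strand), a pseudokinase that acts on AKT signalling, fell from 114, 96.3 and 72.8 TPM in the culture to 13.6, 18.7 and 16.8 TPM in the tumour libraries (-2.45 ± 0.23, adjusted p = 0.00514). Nrn1 (chr13, 36725361 to 36735131, minus strand), which encodes neuritin, a small surface protein found on regulatory, anergic and Tfh cells, fell from 116, 103 and 88.4 to 27.6, 12.5 and 23.1 TPM (-2.29 ± 0.29, adjusted p = 0.0110). Both had no overlap between groups. Selp, the adhesion molecule P-selectin, fell from 16.3, 14.1 and 10.2 to 1.87, 3.25 and 1.54 TPM (-2.19, adjusted p = 0.00961), and Crabp2, a carrier of retinoic acid, from 28.9, 27.7 and 20.7 to 8.28, 1.31 and 5.32 TPM (-2.37, adjusted p = 0.0334). All tumour values of both were below 10 TPM and all culture values above it.

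The libraries of the other cultures are given for their level only, on the same scale. Il21 had 46.3, 60.8 and 67.6 TPM in OT-II Tfh culture replicates 1, 2 and 3 and 2.74, 12.4 and 11.5 TPM in the Th1 culture. Ifit3 had 1.39, 1.48 and 1.68 TPM in the OT-II culture and 1.42, 2.48 and 1.81 TPM in the Th1 culture. Birc5 had 82.2, 112 and 145 and 4.95, 7.88 and 7.39 TPM, and Slc2a3 52.96, 54.2 and 70.4 and 13.7, 15.7 and 11.7 TPM, in the same order. Neither of these cultures reached the Ifit3 level of any tumour library. The OT-II culture lay above every tumour library for Il21, Birc5 and Slc2a3. The Th1 culture overlapped the tumour libraries for Il21 and Slc2a3 and lay below them for Birc5. Satellite-like repeat models took 43.0%, 61.6% and 33.4% of TPM in Th1 replicates 1, 2 and 3. Genes listed at 0 made up 35.7%, 19.5% and 41.4% of symbols there, so the Th1 levels are less comparable.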

How the data were processed

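Total RNA, depleted of ribosomal RNA, was sequenced as stranded, paired 75-base reads, per the labels' protocols. The deposited values are TPM per gene, made by the authors with kallisto on mm10 per the submitters' processing notes, and its version and annotation are not given in the sources used here. TPM keeps no depth, so library depth is unknown, and no count test or counting interval was possible. A value of 0 may be a failed estimate, and a gene is then said to be listed at 0.

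Each of the 12 columns was divided by its median-of-ratios size factor over the 17585 genes above 0 in every file. The factors were 1.15, 1.42 and 1.32 in the tumour libraries and 1.10, 1.15 and 1.30 in the wild-type Tfh culture. Genes with a mean of 1 TPM or more in either group were tested with limma 3.58.1 (R 4.3.3, trend) on log2(TPM + 1), a scale that understates the change of low genes. P-values were adjusted over all 19984 genes by the Benjamini-Hochberg method. The script was tested on simulated data. Symbols of 34699 genes (97.77%) matched GENCODE M21 on GRCm38. Promoter sequences were read from a RefSeq table by symbol.

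Members and gene lists were chosen with earlier results of these data known. The text draws on called protein-coding genes with no overlap and at least 5 TPM in the higher group (the 15 furthest in each direction), up to 5 called members per list in each direction, a fixed set of helper and marker genes, and members that were not called where they describe a list. Some genes that the rule names are not reported here. Genes named for the families in the closing section, and motif examples, were chosen after their values were seen. Alternatives were the deposited scale, a pseudocount of 0.1, size factors from genes at 10 TPM or more alone, a filter at 5 TPM or none, named protein-coding genes alone, all 12 libraries in the fit, the replicate number as a block, and each library left out.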

Additional observations from a re-analysis of the deposited data

How the results depend on the processing

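Every one of the 241 higher and 406 lower genes kept its direction under each alternative in which it had a value, while the number called varied widely. The alternatives reuse the libraries on which these genes were called, so a kept direction is no independent support. Against 241 genes called higher, 129 were called on the deposited scale, 364 with a filter at 5 TPM, 375 among named protein-coding genes alone and 67 with no filter. Against 406 called lower, 266 were called with all 12 libraries in the fit and 168 with no filter. Leaving out 1 library gave 0 to 716 genes higher and 6 to 696 lower, the lowest counts without culture replicate 1 and the highest without tumour replicate 1. The cause was not tested. The labels do not say whether replicate numbers pair the samples. Deviations of same-numbered libraries correlated at -0.058, -0.087 and 0.0097, and those of differently numbered libraries at -0.049 to 0.094. With 3 libraries a group, such correlations cannot settle whether the samples are paired. With the replicate number as a block, 8 genes were higher and 29 lower. With single libraries left out, the log2 fold changes of 3 named genes that were not called ranged across 0: Gzmb from -0.79 (without tumour replicate 2) to 1.06, Gata3 from -0.10 (without culture replicate 2) to 0.23, and Il4 from -0.56 to 0.21 (without tumour replicate 2; 0.01 without tumour replicate 3). Depth is unknown, and 3 libraries a group limit the test: a permutation of 3 against 3 cannot reach a p below 0.1.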

Other observations

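Some gene families were described after their values were seen, without the members that belong to a list above. Of 10 tested genes of the Ifi200 family, which encode sensors of DNA and other interferon-inducible nuclear proteins, 9 rose, with a median log2 fold change of 3.01, and without tumour replicates 1, 2 and 3 and then culture replicates 1, 2 and 3 the number was 10, 9, 4, 0, 0 and 1. These genes are close copies, so their individual values are uncertain. Ifi205 had 17.5, 160.2 and 37.3 TPM in tumour replicates 1, 2 and 3 and 0.369, 1.26 and 0.900 TPM in the culture. All 3 genes of IL-1α, IL-1β and the IL-1 receptor antagonist rose (3, 3, 1, 0, 0 and 1 in the same leave-out fits). Of 7 Clec4 lectin genes 3 rose (5, 5, 2, 0, 1 and 2). Hmox1, which encodes the enzyme that breaks down haem, had 33.5, 179 and 65.8 against 10.3, 7.77 and 10.3 TPM (2.84, adjusted p = 0.0278 in limma). Ptgs2, the inducible cyclooxygenase, had 5.98, 86.2 and 22.9 against 0.827, 1.08 and 0.568 TPM (3.75, adjusted p = 0.0370). Il15, a cytokine for memory T and natural killer cells, had 3.73, 27.99 and 9.11 against 1.12, 0.753 and 0.855 TPM (2.55, adjusted p = 0.0481).

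Of the T cell receptor segments, some joining segments passed the test. Of 59 alpha joining segments 8 rose (25, 7, 4, 0, 0 and 1), 32 lay above the culture without overlap, and the median log2 fold change was 1.02. Limma called none of 110 alpha variable segments, of which 16 had an unadjusted p below 0.05, with 8 above and 7 below the culture without overlap. It also called none of 25 beta variable segments, of which 11 had an unadjusted p below 0.05 and 10 were below the culture without overlap. Over all genes, 1.21% rose, 11.3% lay above and 14.0% below without overlap, and 19.4% had an unadjusted p below 0.05 in limma. The alpha variable segments were under each of these shares. Joining segments are very short, so a TPM value rests on few reads, and the labels do not say how they were quantified.

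Among genes below the culture, 9 of 67 clustered histone genes fell (9, 12, 0, 0, 0 and 1), 39 were below it without overlap, and the median was -0.77. Over all genes, 2.03% fell and 14.0% lay below without overlap. Histone genes are near copies of each other. Foxm1, the factor that drives mitotic genes, had 5.32, 4.91 and 7.36 TPM in the tumour libraries and 24.8, 20.5 and 16.9 TPM in the culture (-1.66, adjusted p = 0.0124). Mybl2, which acts with it, had 9.72, 9.07 and 9.14 against 30.8, 25.98 and 21.5 TPM (-1.38, adjusted p = 0.0126). Dnmt1, the maintenance DNA methyltransferase, had 72.98, 90.4 and 78.6 against 269, 248 and 181 TPM (-1.50, adjusted p = 0.0163). Themis, a signalling protein of the T cell receptor, had 19.2, 16.8 and 17.6 against 58.05, 59.04 and 45.6 TPM (-1.54, adjusted p = 0.00961). Tnfsf4, which encodes the costimulatory ligand OX40L and is outside the costimulatory list above, had 6.31, 2.72 and 4.15 against 20.00, 15.8 and 12.9 TPM (-1.71, adjusted p = 0.0228). None of these 5 genes overlapped between groups. Of 175 ribosomal protein pseudogenes 13 fell and 1 rose, and such copies share sequence with the expressed genes.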
